A study of Sus scrofa with 40 samples.

Results

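Housing was compared in Large White (LW) pigs, with 10 pigs from the alternative (A) system set against 10 from the conventional (C) system. These 20 pigs, of 40 in the series, were found by their labels: the breed given as Large white, with replicates 1 to 10 reared in the conventional and 11 to 20 in the alternative system. By the study's methods the C pigs lived indoors on a slatted floor and the A pigs on bedding with outdoor access, all were castrated males, and littermates were assigned to either system. The labels give the same live weight for every pig. The litter of each pig and its age at slaughter are not in the labels used here, so the littermates could not be matched. RNA of the loin muscle (Longissimus, LM) of each pig was labelled with Cy3 and hybridised beside a Cy5-labelled pool of the RNA of all 40 pigs. No dye swap was made. Each value below is the log2 ratio of pig to pool with the median of its array subtracted, and a difference is A minus C with slide held as a term, so that higher or lower in A pigs refers to its sign. Where another processing or the loss of a pig moved a difference by over 1.5 times or turned its sign, the lowest and highest value over all alternatives follow it in square brackets. The number of arrays limits the precision. The muscle markers ACTA1, MYH1 and CA3 were well above background in all 20 pigs. So were 10027 of 15198 gene probes, among them HBA2, STAB1 and NCAM1, markers of other cell types. Detection of the muscle markers therefore does not identify the tissue.

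The Longissimus is a large back muscle of mostly fast fibres that draw much of their energy from glycogen. Muscle RNA is known to respond to physical activity, through contractile proteins, energy enzymes, calcium handling and early response genes, and to temperature and feeding. Those groups of genes were listed beside others, among them matrix, immune and cell division genes. The lists were drawn up with earlier results of these data known. The comparison asks whether transcript levels of this muscle differ between the systems.

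No probe differed between A and C pigs at an adjusted P under 0.05 in limma (0 of 12211 probes, 0%), and every tested probe had an adjusted P of at least 0.9999. At an unadjusted P under 0.05 stood 258 probes, 2.11% of those tested, with 126 higher and 132 lower in A pigs. Analysed in 2 steps on the LW arrays alone, which resembles the methods but leaves out breed, with slide removed only for probes where its own test passed and housing tested on what was left, the data also gave 0 calls, with 422 probes at an unadjusted P under 0.05. Of these 278 were higher in A pigs, and with no slide term 299 of 403 were, so the split between directions depended on how slide was handled. P values measure the spread between these pigs as if each were independent, although littermates are among them. The median size of a difference was 0.051 on the log2 scale, and 19 probes differed by more than 1.5-fold. The 95% interval of the difference lay within 1.5-fold in both directions for 95.9% of the probes. For 65 probes it reached past 2-fold. None of the genes named below passed the adjusted test.

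Gene symbols were available for 683 of the tested probes, all from a list that the study drew up for genes higher in LW than in Basque pigs on these same samples. Among them 41 had an unadjusted P under 0.05, 29 higher and 12 lower in A pigs, and their median difference was 0.028 against 0.010 over all tested probes. The list is not independent evidence of a direction.

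Of probes with a symbol, AHNAK had the lowest P. AHNAK is a very large scaffold protein found under the plasma membrane of muscle fibres. Its log2 ratio ran from -0.15 to 0.76 (median 0.24) in A pigs and from -0.53 to 0.53 (median -0.10) in C pigs, a difference of 0.54 (SE 0.13, unadjusted P = 0.000954), with a 95% interval of 0.26 to 0.83. The groups overlapped, and A pigs were on average higher in 6 of 6 slides that held both systems. Such slides held only 1 to 3 pigs of a system. Probes named for a low P were picked with slide in the model, so slide counts are not separate evidence. Other probes of AHNAK did not follow it, with differences of 0.11 [-0.015 to 0.23] (unadjusted P = 0.429) and 0.029 [-0.22 to 0.18] (unadjusted P = 0.862).

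BEX1, BEX4 and ARMCX2 belong to neighbouring families of genes on the X chromosome of mammals. BEX1 ran from -0.10 to 0.67 (median 0.25) in A and from -0.44 to 0.64 (median -0.11) in C pigs and differed by 0.39 (SE 0.11, unadjusted P = 0.00315). For BEX4 the values were 0.082 to 0.96 (median 0.50) in A and -0.43 to 0.73 (median 0.0098) in C pigs, and the difference was 0.45 (SE 0.13, unadjusted P = 0.00347). ARMCX2 ran from -0.44 to 1.01 (median 0.64) in A and from -0.35 to 0.89 (median 0.13) in C pigs, a difference of 0.45 [0.20 to 0.86] (SE 0.13, unadjusted P = 0.00408). All 3 were higher in A pigs on average and overlapped between the systems, and A exceeded C in 5 of 6 slides for BEX1, 5 of 6 for BEX4 and 6 of 6 for ARMCX2.

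The remaining probes of that direction belong to genes of signalling and protein turnover. PDE4B, an enzyme that breaks down cyclic AMP, ran from -0.18 to 0.96 (median 0.12) in A and from -0.43 to 0.42 (median -0.21) in C pigs, a difference of 0.43 (SE 0.13, unadjusted P = 0.00477). HBEGF, a growth factor that binds the EGF receptor, ran from -1.01 to 1.20 (median 0.17) in A and from -1.59 to 0.47 (median -0.64) in C pigs. Its difference of 0.82 (SE 0.30, unadjusted P = 0.0136) was the widest among these probes, and its 95% interval was 0.19 to 1.45. THRB, a receptor of thyroid hormone, differed by 0.32 (SE 0.11, unadjusted P = 0.0107) on one probe, by 0.29 on the second and by -0.0034 [-0.081 to 0.065] on the other. Both probes of SAV1, a scaffold protein of the Hippo pathway, were higher in A pigs, by 0.28 [0.18 to 0.36] (SE 0.11) and 0.27 [0.15 to 0.33] (SE 0.10), but by 0.18 and 0.15 without C replicate 6, the lowest C pig on both. RNF25, a ubiquitin ligase, differed by 0.41 (SE 0.12, unadjusted P = 0.00461). In each of these genes the pigs of the systems overlapped.

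**Figure D1:**
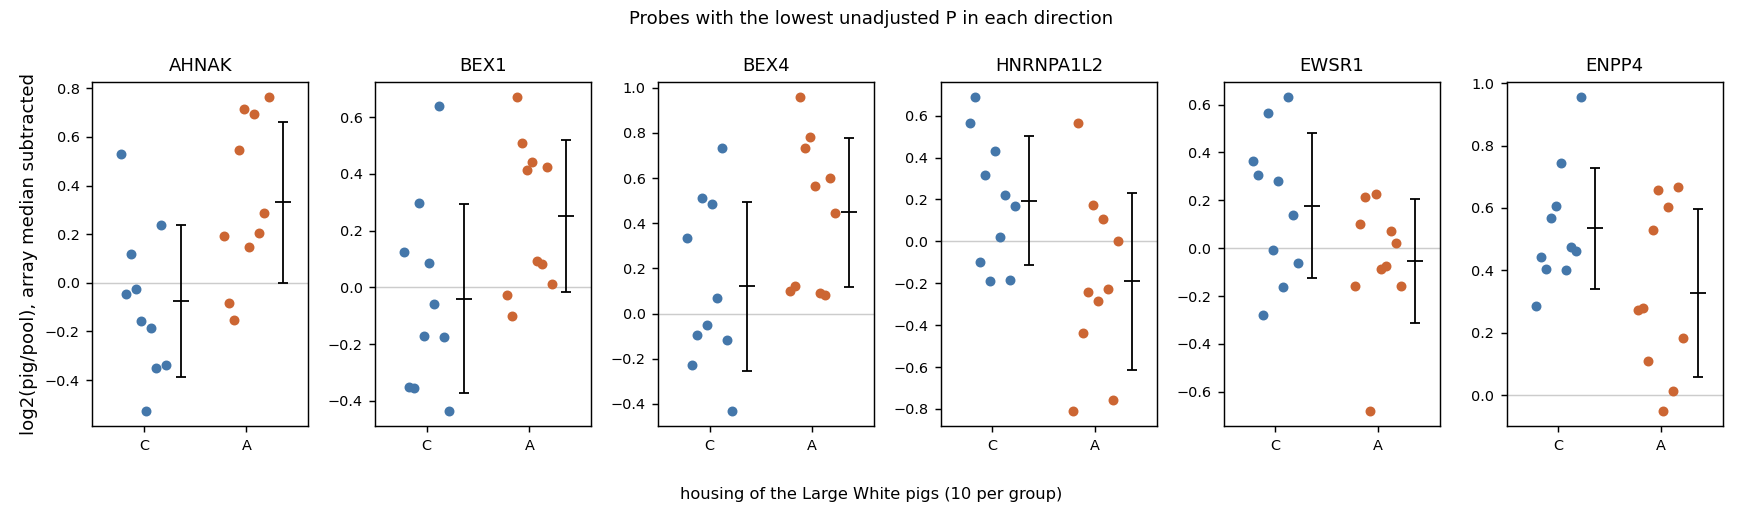
Log2 ratio of pig to pool (vertical axis, array median subtracted) in C (blue) and A (orange) pigs for the genes with a symbol and the lowest unadjusted P in each direction; each point is a pig and the bar is the mean with its SD. The pigs of both systems overlap for every gene shown, AHNAK from -0.15 to 0.76 in A and from -0.53 to 0.53 in C pigs.

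Among probes with a symbol that were lower in A pigs, those of HNRNPA1L2 and EWSR1, symbols of RNA-binding proteins, had the lowest P values. HNRNPA1L2 ran from -0.81 to 0.56 (median -0.23) in A and from -0.19 to 0.69 (median 0.19) in C pigs, a difference of -0.53 (SE 0.15, unadjusted P = 0.0036), and A pigs were on average lower in 6 of 6 slides. A second probe on the same contig, without a symbol, differed by -0.57 [-0.70 to -0.36] (unadjusted P = 0.00108). EWSR1 was read by a pair of probes, with -0.68 to 0.23 (median -0.027) in A and -0.28 to 0.63 (median 0.21) in C pigs on the first, and their differences were -0.33 (SE 0.10, unadjusted P = 0.00579) and -0.35 [-0.42 to -0.22] (SE 0.11, unadjusted P = 0.00682). A pigs were lower in 6 of 6 slides on either probe. Neither gene separated the pigs of the systems.

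The other genes among the 10 symbol probes with the lowest P in that direction have varied roles. PCTP, which carries phosphatidylcholine between membranes, ran from -0.34 to 0.81 (median 0.022) in A and from -0.23 to 0.99 (median 0.34) in C pigs, a difference of -0.39 [-0.56 to -0.26] (SE 0.17, unadjusted P = 0.031). ENPP4, an ectoenzyme that splits nucleotides, differed by -0.26 [-0.83 to -0.20] (SE 0.10, unadjusted P = 0.0174), and was well above background in 9 of 10 A pigs and all 10 C pigs. COL5A3, a chain of type V collagen, differed by -0.27 [-0.35 to -0.14] (SE 0.11, unadjusted P = 0.0325). RNF152, a ubiquitin ligase of the lysosome, differed by -0.25 [-0.46 to -0.15] (SE 0.095), and CLEC11A, a secreted lectin, by -0.17 [-0.36 to 0.058] (SE 0.072). The sign of CLEC11A turned when Cy3 intensity alone was used. B3GNT5, an enzyme of glycolipid synthesis, differed by -0.16 [-0.36 to -0.077] (SE 0.063). RAB28, a small GTPase, gave -0.19 [-0.26 to -0.075] on one probe and -0.093 [-0.14 to -0.026] on the other. Leaving out a pig moved PCTP to -0.26 (without C replicate 10) and RNF152 to -0.15 (without A replicate 14). The groups overlapped in each of these genes as well.

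Whatever their name, the probes with the lowest P were DN129349.1_498 and BX915540.1_1075 among those higher and BQ604567.1_854 and CA780020.1_644 among those lower in A pigs. The first ran from -0.74 to 0.44 (median 0.058) in A and from -1.69 to 0.029 (median -0.18) in C pigs, a difference of 0.56 [0.33 to 0.92] (SE 0.12, unadjusted P = 0.00025). The second differed by 0.43 (SE 0.10, unadjusted P = 0.000862). On average A exceeded C in 5 of 6 slides for the first and in 6 of 6 for the second. BQ604567.1_854 ran from -0.20 to 0.44 (median 0.0078) in A and from 0.15 to 0.70 (median 0.42) in C pigs, a difference of -0.43 [-1.09 to -0.36] (SE 0.10, unadjusted P = 0.000435), and was well above background in 7 of 10 A pigs. Since these carry no gene name here, the first 30 of the 60 bases of 3 of the probes are given, in lower case and 5′ to 3′ as the array design lists them.
DN129349.1_498: tcattgccatatcatttgactgccacggat
BX915540.1_1075: gtttggtggcaatgtgtaaatgtttattat
BQ604567.1_854: ctcaaaaaagaaatctaccatccaaggtgg

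No gene of energy metabolism was called. The list of glycolysis, glycogen and phosphagen held 20 probes of 13 genes, of which 17 had a positive difference, 3 of them at an unadjusted P under 0.05 (median difference 0.085, range -0.30 to 0.38). Over all tested probes 6779 of 12211 had a positive difference, and 258 (2.11%) had an unadjusted P under 0.05 in either direction, as did 41 of 683 probes with a symbol. STBD1, which binds glycogen, ran from -0.77 to 0.59 (median 0.057) in A and from -0.96 to -0.062 (median -0.23) in C pigs on its leading probe, a difference of 0.38 (SE 0.15, unadjusted P = 0.0251). The other probes of STBD1 gave 0.18 [0.12 to 0.43] and 0.15 [0.070 to 0.42]. LDHA, the muscle subunit of lactate dehydrogenase, differed by 0.18 [0.091 to 0.26] (SE 0.18, unadjusted P = 0.316). The list of mitochondria and oxidative metabolism held 23 probes of 20 genes with a median difference of -0.00087. The interval of each of its 23 probes lay within 1.5-fold. So did that of 95.9% of all tested probes and 89.0% of those with a symbol. SIRT3, a deacetylase of mitochondria, differed by 0.19 [0.11 to 0.25] (SE 0.091, unadjusted P = 0.0578), and MRPL41, a protein of the mitochondrial ribosome, by 0.11 [0.050 to 0.16] (SE 0.10). Without C replicate 2 these were 0.11 and 0.050, and LDHA was 0.12 without A replicate 18.

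Contractile genes showed no call in either direction. The list held 12 probes of 12 genes (median difference 0.055, range -0.63 to 0.36), 8 of them with an interval within 1.5-fold. The share with such an interval was 95.9% over all tested probes and 89.0% over those with a symbol. TPM1, a tropomyosin of the thin filament, differed by 0.15 [0.060 to 0.23] (SE 0.093, unadjusted P = 0.129), and MYH1, a heavy chain of fast fibre myosin, by 0.038 [-0.21 to 0.19] (SE 0.24, unadjusted P = 0.876). Without C replicate 10 TPM1 gave 0.082, and without C replicate 8 MYH1 gave -0.076. Markers of slow fibres (4 probes of 3 genes) had a median difference of 0.059 and those of fast fibres (3 probes of 3 genes) of 0.038. CA3, a carbonic anhydrase of slow fibres, differed by 0.10 [-0.020 to 0.22] (SE 0.20) and 0.075 [-0.041 to 0.22] on its probes. ACTA1, the actin of skeletal muscle, ran from -0.74 to 0.36 (median -0.44) in A and from -3.20 to -0.28 (median -0.59) in C pigs, where C replicate 8 alone lay at the lowest value. Its difference of 0.36 [0.15 to 0.51] (SE 0.29) became 0.15 without that pig, and the probes of CA3 gave -0.020 and -0.041, the opposite sign. Calcium handling and membrane complex genes (12 probes of 8 genes) had a median difference of 0.093, with JPH1, which joins the sarcoplasmic reticulum to the T-tubule, at 0.27 (SE 0.11, unadjusted P = 0.0204) and its second probe at 0.065 [-0.0061 to 0.14]. SSPN, a part of the dystrophin complex, gave 0.16 [0.070 to 0.22], 0.12 [0.035 to 0.22] and 0.11 [-0.032 to 0.17] on its probes.

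Collagen and extracellular matrix genes (28 probes of 24 genes) had a median difference of -0.045, with 2 higher and 1 lower in A pigs at an unadjusted P under 0.05, beside 258 of 12211 over all tested probes and 41 of 683 with a symbol in either direction. FMOD, a proteoglycan that binds collagen fibrils, ran from -1.01 to 1.20 (median 0.20) in A and from -1.40 to 0.34 (median -0.28) in C pigs, a difference of 0.61 [0.36 to 0.91] (SE 0.26, unadjusted P = 0.031). SPARC, a matrix protein that binds collagen, gave -0.071 [-0.20 to -0.0080] and 0.026 [-0.077 to 0.19] on its probes, close to 0. Lipid metabolism (22 probes of 17 genes) had a median difference of 0.12, with 3 probes higher and 1 lower at an unadjusted P under 0.05, to be read beside the same shares of 258 of 12211 and 41 of 683. TECR, an enzyme of very long chain fatty acids, gave 0.15 [0.090 to 0.20] and 0.13 [0.066 to 0.18] on its probes, and 0.090 and 0.066 without A replicate 18, which alone lay at the highest value on both.

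Genes of stress and early response (13 probes of 11 genes) had a median difference of -0.00079. DNAJC15, a cochaperone of mitochondria, differed by 0.18 (SE 0.081, unadjusted P = 0.0425) and by 0.14 [0.11 to 0.26] (SE 0.074) on its second probe, and BAG3, a cochaperone of the Z-disc, by -0.088 [-0.24 to 0.066] (SE 0.15). Lysosome and proteolysis genes (21 probes of 20 genes) had a median of 0.013, with PSME2, an activator of the proteasome, at 0.24 [0.14 to 0.33] (SE 0.15, lowest without A replicate 14). Immune and interferon genes (23 probes of 23 genes) had 0.10, growth signalling genes (22 probes of 20 genes) 0.054 and cell division genes (21 probes of 19 genes) 0.061 as median differences. STAB1, a receptor of macrophages and endothelium, differed by 0.24 (SE 0.10, unadjusted P = 0.0322). BTC, a growth factor of the EGF family, differed by 0.0038 [-0.089 to 0.17] (SE 0.14), HIST1H1B, a linker histone, by 0.22 [0.15 to 0.39] (SE 0.13) and 0.14 [0.033 to 0.33] (SE 0.16) on its probes and TUBB, a beta tubulin, by 0.061 [-0.042 to 0.14] (SE 0.18). Without C replicate 8 the second probe of HIST1H1B gave 0.033. None of these lists held a called probe.

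Markers of other cell types gave no call. Erythrocytes were represented by HBA2 alone, a chain of haemoglobin, with -0.50 [-0.76 to -0.22] (SE 0.36) and -0.19 [-0.40 to 0.021] (SE 0.34) on its probes. Its first probe gave -0.22 without C replicate 6 and -0.76 without C replicate 2, and the second 0.021 without A replicate 14. Fibroblast markers (9 probes of 6 genes) had a median difference of -0.049, endothelial and mural markers (6 probes of 6 genes) -0.013, leucocyte markers (7 probes of 7 genes) 0.086 and skeletal muscle markers (6 probes of 5 genes) 0.057. CCDC80, a matrix protein of fibroblasts, gave 0.25 [-0.081 to 0.38] and -0.049 [-0.15 to 0.0085]. Its first probe was read in 8 A and 9 C pigs, and gave -0.072 with outlier spots kept. ACTA2, the actin of smooth muscle, gave 0.36 [0.18 to 0.49], or 0.18 without C replicate 8. That pig was the lowest C pig for ACTA2 (-2.75) as for ACTA1 (-3.20), whose difference was also 0.36. Whether the ACTA2 probe also reads skeletal actin was not tested. NCAM1 alone stood for nerve and Schwann cells, at -0.055 [-0.13 to 0.0052] (SE 0.078), and no adipocyte marker had a symbol here. In whole muscle, fewer cells of a type and less RNA per cell cannot be told apart.

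Genes that the study also measured by RT-PCR, of which only those higher in LW than in Basque pigs carry a symbol here, include the largest difference. ADAMTS8, a secreted protease of the matrix, ran from -2.33 to 1.80 (median -0.066) in A and from -3.51 to 1.55 (median -1.22) in C pigs. Its difference of 1.58 [1.01 to 1.90] (SE 0.70, unadjusted P = 0.0381) was the largest of any tested probe, and its 95% interval was 0.10 to 3.06. ANKRD1, a titin-binding protein that responds to stretch, ran from -2.03 to 1.58 (median -0.77) in A and from -2.67 to 1.12 (median -1.82) in C pigs, a difference of 1.04 [0.47 to 1.34] (SE 0.57, unadjusted P = 0.0863), or 0.47 without A replicate 14. Both genes spanned more within either system than the difference between systems, and the groups overlapped. On average A exceeded C in 5 of 6 slides for ADAMTS8 and in 4 of 6 for ANKRD1. GLOD4 gave 0.28 [0.15 to 0.37] and 0.12 [0.065 to 0.18] on its probes, HHATL, a membrane protein of the sarcoplasmic reticulum, 0.15 [0.091 to 0.20] and 0.080 [0.034 to 0.15], and IGF1, insulin-like growth factor 1, -0.19 [-0.33 to -0.13] (SE 0.10).

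PGM1, which moves phosphate on glucose between positions, was read by a pair of probes and spread widely within each system. On one it ran from -1.94 to 1.66 (median 0.55) in A and from -1.97 to 1.42 (median 0.32) in C pigs. On it 3 A pigs lay at -1.52 or lower and 2 C pigs at -1.93 or lower, and all other LW pigs lay above 0. The difference was -0.29 [-0.74 to 0.18] (SE 0.62) on that probe and -0.30 [-0.75 to 0.15] (SE 0.62) on the other, and both turned sign without A replicate 16 (0.18 and 0.15). MYH3, the heavy chain of embryonic myosin, ran from -1.03 to 0.39 (median -0.40) in A and from -0.99 to 2.93 (median -0.11) in C pigs, a difference of -0.63 [-0.94 to -0.029] (SE 0.44) that was -0.029 without C replicate 10, the pig with the highest value. For these probes the standard errors were several times the median SE of 0.090 over all tested probes.

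**Figure D2:**
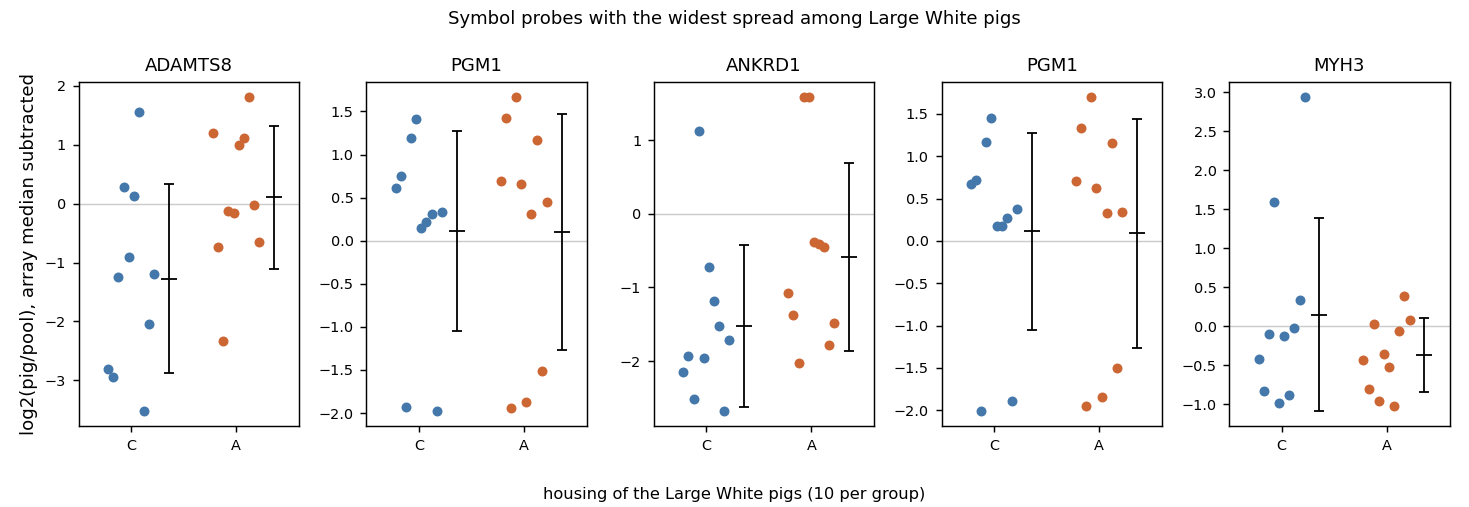
Log2 ratio of pig to pool (vertical axis, array median subtracted) in C (blue) and A (orange) pigs for the probes with a symbol and the widest spread; each point is a pig and the bar is the mean with its SD. ADAMTS8 spans -3.51 to 1.55 in C pigs and -2.33 to 1.80 in A pigs, and both PGM1 probes show a low set of pigs in each system.

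One array stood apart, that of A replicate 18. Its log2 ratios had a mean correlation of -0.058 with the other LW arrays over the tested probes, against 0.46 to 0.69 for the others. On the other arrays brighter probes had lower ratios (correlation -0.73 to -0.50 across probes), and on this array the sign was opposite (0.33). After loess within arrays, which removes a trend with brightness, its mean correlation was 0.35, inside the range of the others (0.16 to 0.42). Lowest after loess were C replicate 8 (0.158) and A replicate 13 (0.160). Before loess C replicate 8 had the lowest value of the other arrays (0.46) and the widest spread of log2 ratios (0.45). Pigs varied more in A than in C housing as measured, with a median SD over probes of 0.20 against 0.16 and the larger SD in A pigs for 8352 of 12211 probes. Without A replicate 18 the median SD of A pigs was 0.16, and 6248 of 12210 probes had the larger SD in A pigs. Without this pig 0 probes were called and 405 had an unadjusted P under 0.05, 157 of them higher in A pigs. The difference of AHNAK was then 0.55, that of HBEGF 0.81 and that of HNRNPA1L2 -0.51.

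No array measure tested differed between systems beyond the spread between pigs. The median Cy3 signal per array ran from 132 to 165 in A and from 128 to 165 in C pigs, a difference of 6.24 (two-sided permutation test, P = 0.232, 0.754 after adjustment over the 5 measures). Between 11631 and 12490 probes were well above background in A and between 11094 and 12589 in C pigs (permutation P = 0.823). The median Cy5 signal, the background and the spread of log2 ratios gave permutation P values of 0.846, 0.302 and 0.469. Within the 6 slides that held both systems, A exceeded C in 3 slides for Cy3 signal and in 3 for probes above background. A replicate 12 was the only LW pig on its slide and adds nothing to a difference with slide as a term.

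**Figure D3:**
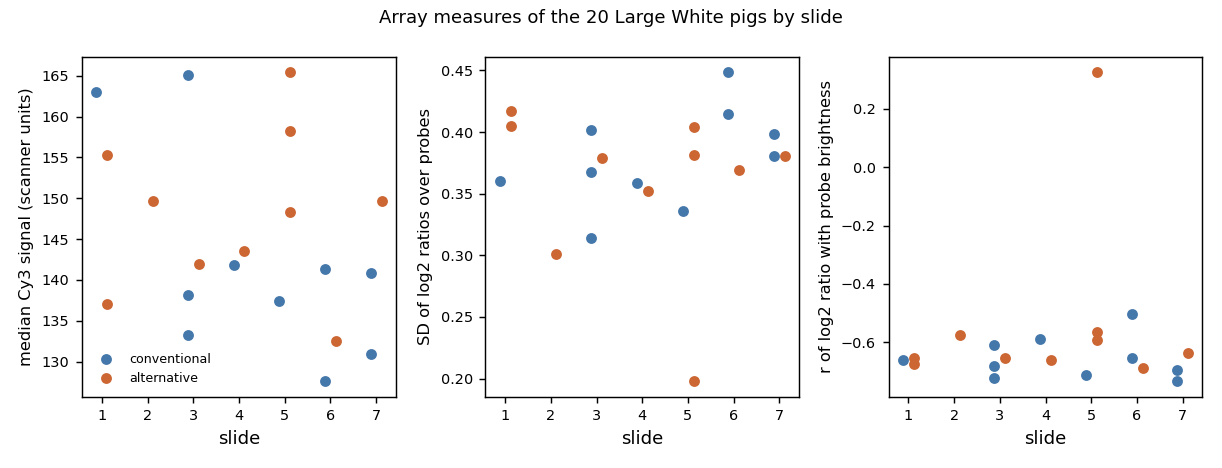
Median Cy3 signal, SD of log2 ratios over the tested probes, and correlation of log2 ratio with probe brightness (vertical axes) for each LW array by slide (horizontal axis), in C (blue) and A (orange) pigs. A replicate 18 on slide 5 is alone in its correlation of 0.33 and has the narrowest SD, 0.20.

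The same fit in the Basque (B) pigs also called 0 of 12301 probes (0%), with 464 (3.77%) at an unadjusted P under 0.05. Whether housing acted differently in the breeds was tested on all 40 arrays as an interaction, and 0 of 12521 probes were called (0%), with 324 (2.59%) at an unadjusted P under 0.05. ANKRD1 differed by 1.04 in LW and by -1.07 in B pigs, and the interaction was 2.00 (SE 0.72, unadjusted P = 0.00884, adjusted P = 0.974). Without A replicate 14, left out after the data were seen, the difference in LW pigs was 0.47 and the interaction 1.71 (SE 0.70, unadjusted P = 0.0207, adjusted P = 0.983). FMOD differed by 0.61 in LW and 0.012 in B pigs, and HBEGF by 0.82 and 0.062. AHNAK gave 0.20 and BEX4 0.15 in B pigs. None of these differences between breeds passed the adjusted test.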

How the data were processed

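LM RNA of 20 LW pigs was measured, 10 for each housing system, grouped by the labels. The authors deposited each array as scanner output of Agilent Feature Extraction, that is, spot intensity in both channels before normalization, and a series matrix of log2 ratios. In direction of pig over pool, those log2 values followed Agilent's processed signals of the same arrays (median correlation 0.99, but 0.83 for A replicate 18), with medians from -0.014 to 0.026. The sources used here do not give their scaling.

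Background was corrected by normexp (offset 50, limma 3.58.1, R 4.3.3), log2(Cy3/Cy5) was computed and each array's median removed. 1357 outlier spots were left out and 39 saturated spots kept. Some named probes therefore had fewer than 10 pigs in a system. Besides CCDC80, HBA2 had 9 A pigs on its first probe, and 8 A and 9 C pigs on its second. The second probe of SPARC had 9 A and 9 C pigs, and that of CLEC11A 9 C pigs. Tests took probes whose Cy3 signal stood well above background for 5 or more of the 10 pigs of either system, which left 12211 of 15198 gene probes. Housing and slide were fitted to the LW arrays alone with lmFit and eBayes, with Benjamini-Hochberg adjustment over all tested probes. Slide and housing stood in one model, where the methods have 2 steps. The two-step alternative took the LW arrays, housing and all tested probes, so it is not that analysis, which modelled both breeds on fewer spots. The between-array quantile step of the methods was not used. Array measures were compared by permutation (100000 resamples, scipy 1.17.1). Only the fit of housing and slide was first tested on simulated data. The labels give another RNA amount for labelling than the methods.

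Scanner output names no gene. Symbols came from the probe column of a supplementary table of the study that lists genes higher in LW pigs (683 probes; 532 of its symbols are in the pig reference tables). Probes sharing a symbol in it had a median correlation of 0.85 across LW arrays (97 pairs), against 0.10 in a second table (98 pairs), which was not used. Named genes are the 10 symbol probes with the lowest P in each direction, the 2 lowest of any name, the RT-PCR genes with a symbol (those higher in LW pigs, as the others are not in the table used), the 5 widest symbol probes, the lowest P and brightest member of each gene list, and all probes of these genes, except that one item is not reported here. Members and lists were chosen with earlier results of these data known. Alternatives covered background, normalization, Cy3 alone, the series matrix, filters, slide, array weights, all 40 arrays and leaving out each pig.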

Additional observations from a re-analysis of the deposited data

Results flagged for a closer look

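Among 152 groups of 10 pigs examined (each named probe and array measure in each system), 24 held a pig far from the other 9, by the gap to its neighbour over the range of the group. The cut-off is one that about 1 in 20 groups of normally distributed values would pass. Many of these probes were picked by P or by spread on the same values. Probes of one gene and pigs of one array are not independent either. The count of 24 can therefore not be set against 1 in 20.

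C replicate 8 accounted for 11 of them. It was the lowest C pig for ACTA1 (-3.20), ACTA2 (-2.75), both probes of CA3 (-2.12 and -2.10), the second probe of CCDC80 (-1.05) and of HIST1H1B (-1.01), IGF1 (-0.47), LDHA (-1.56), NCAM1 (-0.27) and the first probe of SSPN (-1.11). It was the highest for RNF25 (0.54), and on the first probe of HIST1H1B it was not lowest but the highest C pig (0.59). Without this pig 0 probes were called and 376 had an unadjusted P under 0.05. What sets it apart was not tested.

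A replicate 18 had the narrowest spread of log2 ratios (0.20) and the highest values of both probes of TECR (0.80 and 0.74). A replicate 17 was lowest for the second probe of GLOD4 (-0.27). A replicate 14 was lowest for both probes of EWSR1 (-0.68 and -0.81), and A replicate 13 for the second probe of CCDC80 (-0.94) and the first of STBD1 (-0.77). C replicate 6 was lowest for both probes of SAV1 (-1.24 and -0.94). C replicate 4 was highest for ANKRD1 (1.12) and the second probe of DNAJC15 (0.40), and C replicate 10 lowest for DN129349.1_498 (-1.69).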

How the results depend on the processing

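No probe was called in any of the 37 alternatives, 20 of which left out one pig; the lowest adjusted P was 0.627. The unadjusted count was 258 probes, 126 of them higher in A pigs, the number given in brackets after each count below. It became 370 (150) with no background correction, 528 (336) with processed signals and 425 (212) with offset 0. Loess gave 475 (242), Cy3 alone 479 (303) and the series matrix 462 (271). With no slide term it was 403 (299), with slide random 391 (278) and with scan day 499 (353). The two-step analysis gave 422 (278), array weights 659 (292) and all 40 arrays 364 (216). Among the most variable probes, where fewer are tested, it was 120 (56). Leaving out one pig, the count ran from 199 (93) to 405 (157), the latter without A replicate 18. Apart from the smaller number of probes, the cause was not tested. The share of probes within 1.5-fold ran from 82.7% (processed signals) to 97.3% (all 40 arrays). The interaction with breed called 0 probes in each of its 6 alternatives, of which leaving out A replicate 14 or 18 was chosen after seeing the data.

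Of 75 named probes 56 kept the direction of their difference in every alternative that gave a value, and so did 32 of the 33 with an unadjusted P under 0.05. Leaving out some one pig moved 42 of the 75 by over 1.5 times or changed their sign, 5 of the 33 among them, and some other alternative did so for 52 and 15. Those below changed sign, and the cause was not tested. AHNAK (0.11) -0.015 to 0.23 leaving out a pig. AHNAK (0.029) gave -0.022 (no background correction), -0.017 (Cy3 alone), -0.22 (no slide), -0.19 (random slide), -0.13 (scan day), -0.17 (40 arrays) and -0.13 to 0.18 leaving out a pig. BAG3 (-0.088) gave 0.066 (no slide), 0.048 (random slide), 0.066 (scan day), 0.066 (two-step). BTC (0.0038) gave -0.043 (no background correction), -0.019 (processed signals), -0.0097 (offset 0), -0.031 (loess), -0.035 (Cy3 alone), -0.035 (the series matrix) and -0.089 to 0.061 leaving out a pig. CA3 (0.10) -0.020 to 0.22 leaving out a pig. CA3 (0.075) -0.041 to 0.22 leaving out a pig. CCDC80 (-0.049) gave 0.0055 (40 arrays) and -0.15 to 0.0085 leaving out a pig. CCDC80 (0.25) gave -0.081 (the series matrix), -0.072 (outliers kept). CLEC11A (-0.17) gave 0.058 (Cy3 alone). HBA2 (-0.19) -0.40 to 0.021 leaving out a pig. JPH1 (0.065) gave -0.0061 (Cy3 alone). MYH1 (0.038) gave -0.014 (no background correction), -0.0076 (Cy3 alone), -0.0054 (no slide), -0.0054 (two-step), -0.068 (array weights) and -0.21 to 0.19 leaving out a pig. NCAM1 (-0.055) -0.13 to 0.0052 leaving out a pig. PGM1 (-0.30) -0.75 to 0.15 leaving out a pig. PGM1 (-0.29) -0.74 to 0.18 leaving out a pig. SPARC (0.026) gave -0.041 (the series matrix), -0.014 (outliers kept), -0.029 (no slide), -0.024 (random slide), -0.028 (scan day), -0.029 (two-step) and -0.077 to 0.19 leaving out a pig. SSPN (0.11) -0.032 to 0.17 leaving out a pig. THRB (-0.0034) gave 0.016 (no background correction), 0.054 (no slide), 0.046 (random slide), 0.065 (scan day), 0.054 (two-step) and -0.081 to 0.031 leaving out a pig. TUBB (0.061) -0.042 to 0.14 leaving out a pig.

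C replicate 6 and A replicate 19 are the only LW pigs of their slide, so leaving out either gives the same fit. No paired analysis was possible because the systems share no replicate number within LW and litters are not in the labels used here. What low signal over background limits was not tested: ENPP4, well above background in 9 of 10 A pigs, gave -0.83 with processed signals against -0.26, and BQ604567.1_854, in 7 of 10, -1.09 against -0.43.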

Other observations

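Correlations of log2 ratios between LW pigs over the tested probes had a median of 0.65 within A housing (45 pairs of pigs), 0.70 within C housing (45 pairs) and 0.68 across systems (100 pairs). Without A replicate 18, the array least correlated with the others, left out after the data were seen, the medians were 0.66 within A housing (36 pairs) and 0.69 across systems (90 pairs). Whether these medians differ was not tested. The values are across probes, which are not independent, and share the pool and the dye order.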
